A study of Mus musculus with 9 samples.

Results

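The ATP-binding cassette (ABC) family was followed in RNA sequencing of mouse bone marrow stem cells sorted by the surface proteoglycan Syndecan-2. Its members are all gene symbols of the expression table that start with Abc, a subfamily letter from a to g and a digit, which gave 36 of 20635 symbols and 133 of 58094 transcripts. They comprise 9 genes of subfamily A, 8 of B, 7 of C, 4 of D, 1 of E, 3 of F and 4 of G. The animals were C57BL/6J mice aged 10 weeks with no transgene or treatment given in the labels. The sex is given as male in the protocol and as mixed in the series text. Marrow of the femur and tibia was sorted into 3 populations of 3 libraries each, with 10000 cells per library. The Parent population is the KSL CD34- gate (c-Kit+, Sca-1+, lineage negative, CD34-), which is enriched in long-term stem cells. The Syndecan-2+ and Syndecan-2- populations (the positive and the negative fraction) are the cells of that same gate with and without Syndecan-2 on their surface, so that Parent contains both. All 3 share the gate, and no label ties a replicate to an animal of its own. The p-values therefore reflect variation among these libraries, some or all of which may be technical.

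ABC transporters use the energy of ATP to move drugs, lipids, peptides, heme and other substrates across membranes. Several of them pump out dyes and cytotoxic drugs. Dye efflux defines the side population of the bone marrow, the cells that exclude Hoechst dye, and in mouse marrow this exclusion is chiefly the work of Abcg2. The E and F subfamilies have the ATP-binding domains but no membrane part and act in translation.

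Levels are in CPM, deposited per transcript relative to library size and added up here for each gene. A level of 1 CPM stands for between 15.5 and 20.6 reads, and 3 reads for between 0.146 and 0.194 CPM, under which a level is not told from 0. Such floors cover counting error only. Testing was limited to genes that reached 1 CPM in 3 or more of the 9 libraries and was done with limma on log2(CPM + 1), which understates the change of low genes. "Higher" and "lower" mark an adjusted p under 0.05 over all 13997 genes tested. In bulk RNA a lower level can come from fewer cells of a type or from less RNA per cell, which cannot be told apart.

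The sort was visible in its own gene. Sdc2 gave 0.477, 0.203 and 0.316 CPM in the negative fraction (libraries 1 to 3), 1.81, 1.999 and 1.43 in Parent and 5.23, 4.17 and 4.34 in the positive fraction, with no overlap between populations. All 8 long-term stem cell markers tested were higher in the positive than in the negative fraction, and their summed level was 70.3 to 73.8 CPM (negative fraction), 130.1 to 158 (Parent) and 312 to 376 (positive fraction). All 5 multipotent progenitor markers were lower, and their sum was 1120.2 to 1216 CPM (negative fraction), 886 to 943 (Parent) and 101 to 147 (positive fraction). Over all genes tested, 20.5% were higher and 9.51% lower. Markers of other cell types moved as well. Of 6 plasma cell markers tested, 5 were higher and 1 (Sdc1) was lower in the positive fraction, with a sum of 38.5 to 49.6 CPM (negative fraction), 176 to 209 (Parent) and 631 to 882 (positive fraction). The receptor gene of that list, Tnfrsf17, was below 1 CPM on average in every population. All 4 megakaryocyte markers tested were higher (sum 44.7 to 49.7 CPM (negative fraction), 81.1 to 86.9 (Parent) and 202 to 211 (positive fraction)), as were both erythroid markers tested, while the red cell genes Hba-a1, Hbb-bs, Hbb-bt and Slc4a1 were below the test's minimum. Of 3 macrophage markers tested 2 were lower, of 3 B cell markers 1 was lower, and of 3 endothelial and stromal markers 1 was higher and 1 lower. The T and NK cell marker tested was not called, and the neutrophil markers found, S100a8 and Ngp, were below the test's minimum. The part of these marker differences in the ABC results was not tested.

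Of the 36 ABC genes, 30 could be tested. Between Syndecan-2+ and Syndecan-2- libraries, 10 of them were higher (33.3%) and 3 were lower (10%), against 20.5% higher and 9.51% lower of all genes tested. The median log2 difference of the 30 genes was 0.18, against 0.10 over all genes. In 18 of the 30 genes the libraries of one fraction all lay above those of the other, and 42.5% of all genes had that property. Against Parent, 6 of 30 were higher in Syndecan-2+ libraries (20%, with 9.9% of all genes) and 2 were lower (6.67%, with 7.31% of all genes). From Parent to Syndecan-2- libraries 0 of 30 were higher (0.121% of all genes) and 2 were lower (6.67%, with 2.54% of all genes). With limma's unadjusted p under 0.05 that comparison would hold 1 gene higher and 6 lower, and no other tool was run. The share of all genes at this unadjusted limit was not counted, so 0.121% and 2.54% do not apply to those counts. Both comparisons with Parent share the same 3 Parent libraries. All 13 genes called between the Syndecan-2 populations had a Parent mean between both of them, as did 94% of the 4205 genes called in the whole table.

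The filter matters for 5 of the tested members, which reached 1 CPM in only some libraries. Abca4 and Abcb1a passed mainly through Syndecan-2+ libraries, where all 3 reached 1 CPM against 0 and 1 of the Syndecan-2- libraries, and Abcb9 passed through 3 Syndecan-2+ and 1 negative library. Abca5 missed 1 CPM in 1 negative library and Abcc3 in 6 of 9 libraries. Among the 25 members at 1 CPM or more in all 9 libraries, 7 were higher and 3 were lower. The shares of all genes given above belong to the filter of 3 libraries, and shares under this stricter limit were not counted.

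TMM rescaling, which sets the bulk of genes equal between libraries, gave 9 higher and 6 lower in place of 10 and 3, and it moved the median of all genes from 0.10 to -0.02. Quantile normalization gave 8 higher and 4 lower. The shares of all genes called under these 2 scalings were not counted. Small differences of ABC genes have to be read against the shift in the median of all genes.

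**Figure D1:**
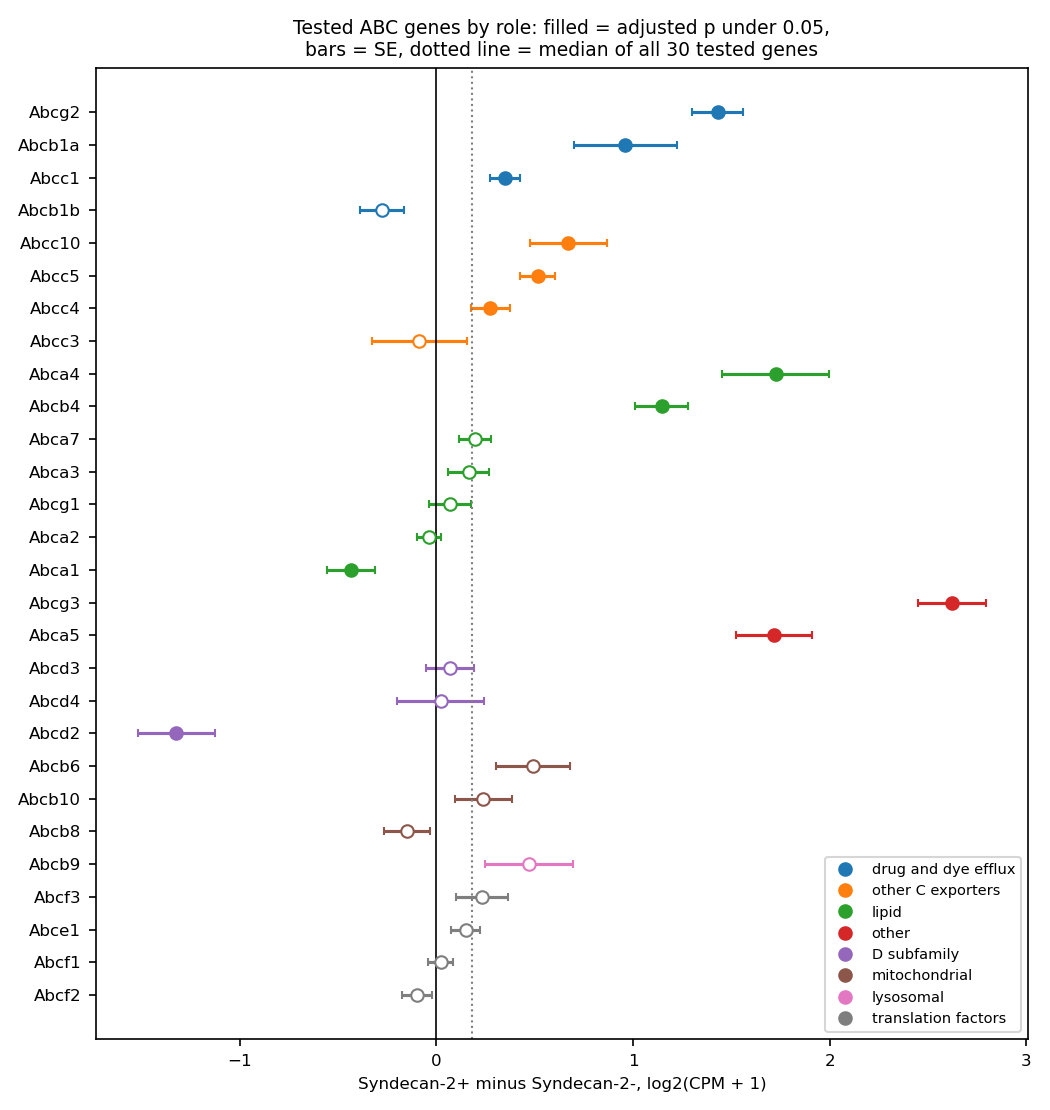
Differences of 28 of the 30 tested ABC genes, Syndecan-2+ minus Syndecan-2- on the log2(CPM + 1) scale (x axis), by role (colours); points are limma estimates, bars SE, filled points passed an adjusted p under 0.05. Abcg3 is farthest right at 2.62 and Abcd2 farthest left at -1.32, and all 4 translation factors lie near 0 with open points.

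Of the 4 drug and dye efflux genes, 3 were higher in Syndecan-2+ libraries, where 20.5% of all genes were, and their median log2 difference was 0.66 against 0.10. Abcg2 (breast cancer resistance protein) extrudes Hoechst dye, mitoxantrone and porphyrins. Abcg2 (ENSMUSG00000029802, chromosome 6, 58584523 to 58692869, build GRCm38) gave 7.47, 6.59 and 6.42 CPM in the negative fraction (libraries 1 to 3), 12.7, 11.2 and 8.93 in Parent and 18.8, 19.95 and 21.5 in the positive fraction. The 3 populations did not overlap, with Syndecan-2+ libraries highest, Parent libraries in the middle and Syndecan-2- libraries lowest. The Syndecan-2+ mean of 20.1 ± 1.34 CPM (SD, n = 3) was 2.94 times the Syndecan-2- mean (log2 1.43, SE 0.13, adjusted p = 1.64e-07). It was 1.83 times the Parent mean (log2 0.83, SE 0.13, adjusted p = 0.000174). The Syndecan-2- level was lower than Parent (log2 -0.60, SE 0.13, adjusted p = 0.0154), and that call was lost without Parent library 1 (-0.50, adjusted p = 0.107), Parent library 2 (-0.58, adjusted p = 0.0517), negative library 2 (-0.58, adjusted p = 0.0571) or negative library 3 (-0.56, adjusted p = 0.0629). The exact two-sided permutation p of the CPM difference was 0.1 in each of the 3 comparisons of Abcg2, the smallest that 3 libraries against 3 can give.

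Listed Abcg2 transcripts start at 4 places, and for 3 of them the RefSeq tables (GRCm38.p6) hold the surrounding promoter, shown here because the Abcg2 reads divide between these starts. Each window runs from 250 bases before to 50 bases after the start, on the plus strand. Capitals mark GGAAGT, the letters bound by ETS factors, and GCGTG, the core letters of the aryl hydrocarbon receptor and hypoxia response elements, on either strand, so that ACTTCC and CACGC are their reverse complements.
Abcg2 distal start, chr6:58584283-58584582: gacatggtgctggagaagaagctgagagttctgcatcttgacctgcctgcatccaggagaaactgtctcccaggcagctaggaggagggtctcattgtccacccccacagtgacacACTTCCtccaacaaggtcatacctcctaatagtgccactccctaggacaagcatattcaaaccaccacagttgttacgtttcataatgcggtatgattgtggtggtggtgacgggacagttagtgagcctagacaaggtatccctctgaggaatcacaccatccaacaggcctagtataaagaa
Abcg2 middle start, chr6:58596422-58596721: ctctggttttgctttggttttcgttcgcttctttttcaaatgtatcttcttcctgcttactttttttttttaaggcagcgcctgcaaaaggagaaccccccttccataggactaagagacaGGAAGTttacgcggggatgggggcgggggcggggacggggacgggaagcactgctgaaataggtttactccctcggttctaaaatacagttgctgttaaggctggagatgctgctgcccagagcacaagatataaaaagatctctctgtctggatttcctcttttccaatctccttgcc
Abcg2 proximal start, chr6:58640296-58640595: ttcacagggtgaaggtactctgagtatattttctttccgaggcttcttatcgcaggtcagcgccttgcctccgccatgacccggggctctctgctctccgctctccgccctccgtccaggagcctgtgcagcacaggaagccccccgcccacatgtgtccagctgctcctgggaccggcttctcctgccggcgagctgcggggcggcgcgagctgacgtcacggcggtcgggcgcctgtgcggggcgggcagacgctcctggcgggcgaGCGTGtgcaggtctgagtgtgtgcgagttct
The distal and middle windows hold 1 GGAAGT match each and no GCGTG, and the proximal window holds GCGTG and no GGAAGT.

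On average, the 4 transcripts of the proximal start held most of the Abcg2 level. They gave 3.32, 5.37 and 4.02 CPM in the negative fraction, 8.14, 4.82 and 7.27 in Parent and 12.9, 15.5 and 14.3 CPM in the positive fraction. All Syndecan-2+ values lay above the other 6, while Parent and Syndecan-2- values overlapped. The proximal start held 62.9 ± 18.6% of Abcg2 in Syndecan-2- libraries, 62.8 ± 19.3% in Parent and 70.9 ± 5.79% in Syndecan-2+ libraries, shares that overlap within their SD. The middle start gave 3.52, 0.416 and 1.98 CPM in the negative fraction, 1.57, 4.77 and 0.967 in Parent and 3.44, 3.09 and 3.002 CPM in the positive fraction. The distal start reached at most 3.73 CPM. None of the single Abcg2 transcripts tested was called, unlike the gene sum, and how reads shared between its transcripts were divided is not given in the sources used here.

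**Figure D2:**
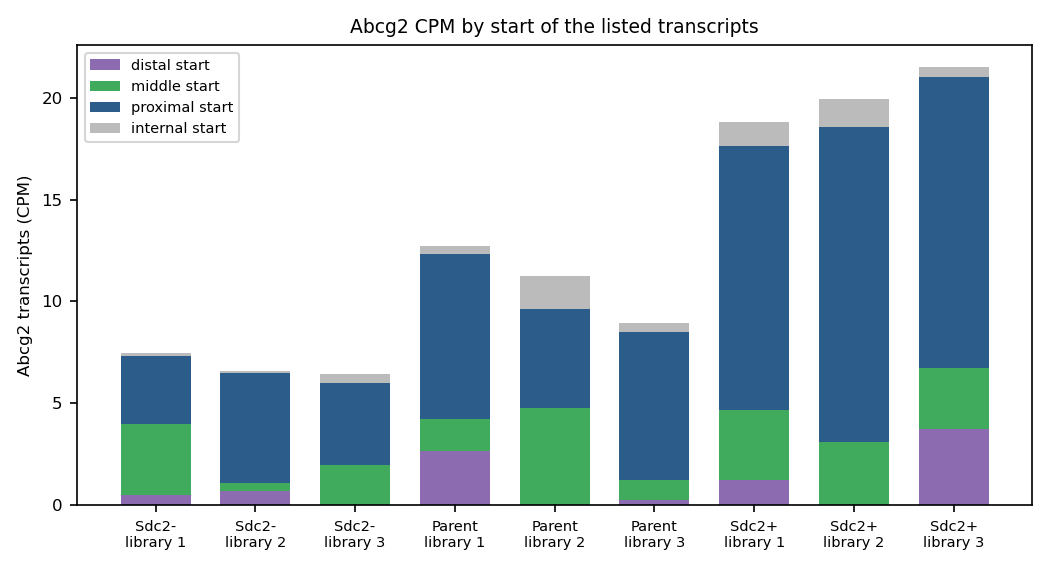
Abcg2 CPM (y axis, linear) in each of the 9 libraries, stacked by the start of the listed transcripts (distal, middle, proximal, internal). The proximal start holds 12.9 to 15.5 CPM in the Syndecan-2+ libraries and at most 5.37 CPM in the Syndecan-2- libraries.

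P-glycoprotein, the product of MDR1 in human, is encoded by a pair of genes in the mouse. Abcb1a (ENSMUSG00000040584, chromosome 5, 8660077 to 8748575), one of them, gave 0.711, 1.36 and 0.464 CPM in the negative fraction (libraries 1 to 3), 0.5905, 2.02 and 1.09 in Parent and 1.698, 2.84 and 3.21 in the positive fraction. It was higher in the positive than in the negative fraction, 3.06-fold in mean CPM (log2 0.96, SE 0.26, adjusted p = 0.00928), and the Parent values overlapped both. Against Parent it was not called (log2 0.70, SE 0.26, adjusted p = 0.077), but was higher with the replicate number as a block (adjusted p = 0.0233). Abcb1b (ENSMUSG00000028970, chromosome 5, 8798147 to 8866315), the other, gave 19.9, 18.5 and 18.3 CPM in the negative fraction (libraries 1 to 3), 21.5, 18.4 and 16.1 in Parent and 15.99, 13.6 and 16.8 in the positive fraction. Its Syndecan-2+ values lay below the Syndecan-2- values without overlap, yet it was not called (log2 -0.28, SE 0.11, adjusted p = 0.0796). With the replicate block Abcb1b was lower (adjusted p = 0.0396), as it was under TMM rescaling (-0.40, adjusted p = 0.00895), quantile normalization (-0.40, adjusted p = 0.0103) and rescaling to the same listed sum (-0.34, adjusted p = 0.034). The exact two-sided permutation p between the Syndecan-2 populations was 0.1 for Abcb1a and for Abcb1b. Against Parent the exact p was 0.2 for Syndecan-2+ libraries in both genes, and 0.6 and 0.9 for Syndecan-2- libraries. These copies are alike, so that their split is uncertain. Of the 50-base words of the longest Abcb1a transcript, 15.5% also occur in Abcb1b, and 18% in the other direction. Abcb4, at 20.1 CPM in the positive fraction, holds 2.57% of the Abcb1a words and 1.55% of the Abcb1b words. Whether Abcb4 reads add to the low Abcb1a level was not tested. Exons of Abcb1a and Abcb1b also overlap Gm42686 and Gm5106 on the opposite strand.

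Abcc1 (multidrug resistance protein 1), which exports glutathione conjugates and leukotriene C4, was the remaining efflux gene. Abcc1 (ENSMUSG00000023088, chromosome 16, 14361558 to 14475737) gave 58.1, 56.8 and 55.6 CPM in the negative fraction (libraries 1 to 3), 71.8, 58.9 and 69.98 in Parent and 73.1, 73.7 and 71.3 in the positive fraction. Syndecan-2+ values spanned a narrow range above all Syndecan-2- values, 1.28-fold in mean CPM (log2 0.35, SE 0.08, adjusted p = 0.002), and the exact two-sided permutation p was 0.1. Parent overlapped the Syndecan-2+ libraries, and neither comparison with it was called. The main coding transcript of Abcc1, ENSMUST00000100167, was not called, at 38.1 ± 1.55 and 43.4 ± 7.71 CPM in the negative and the positive fraction. Of its nonsense-mediated decay transcripts, ENSMUST00000133454 stood at 3.12 and 8.83 CPM, in the same order. ENSMUST00000147759 stood at 3.12 and 6.21 CPM and ENSMUST00000130671 at 3.67 and 3.83 CPM, and none was called. Summed over the 4 genes, drug and dye efflux RNA came to 86.2, 83.3 and 80.8 CPM in the negative fraction, 107, 90.5 and 96.1 in Parent and 109.6, 110.2 and 113 in the positive fraction. Every Syndecan-2+ sum lay above every Parent and Syndecan-2- sum, and Abcc1 made up most of each sum.

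**Figure D3:**
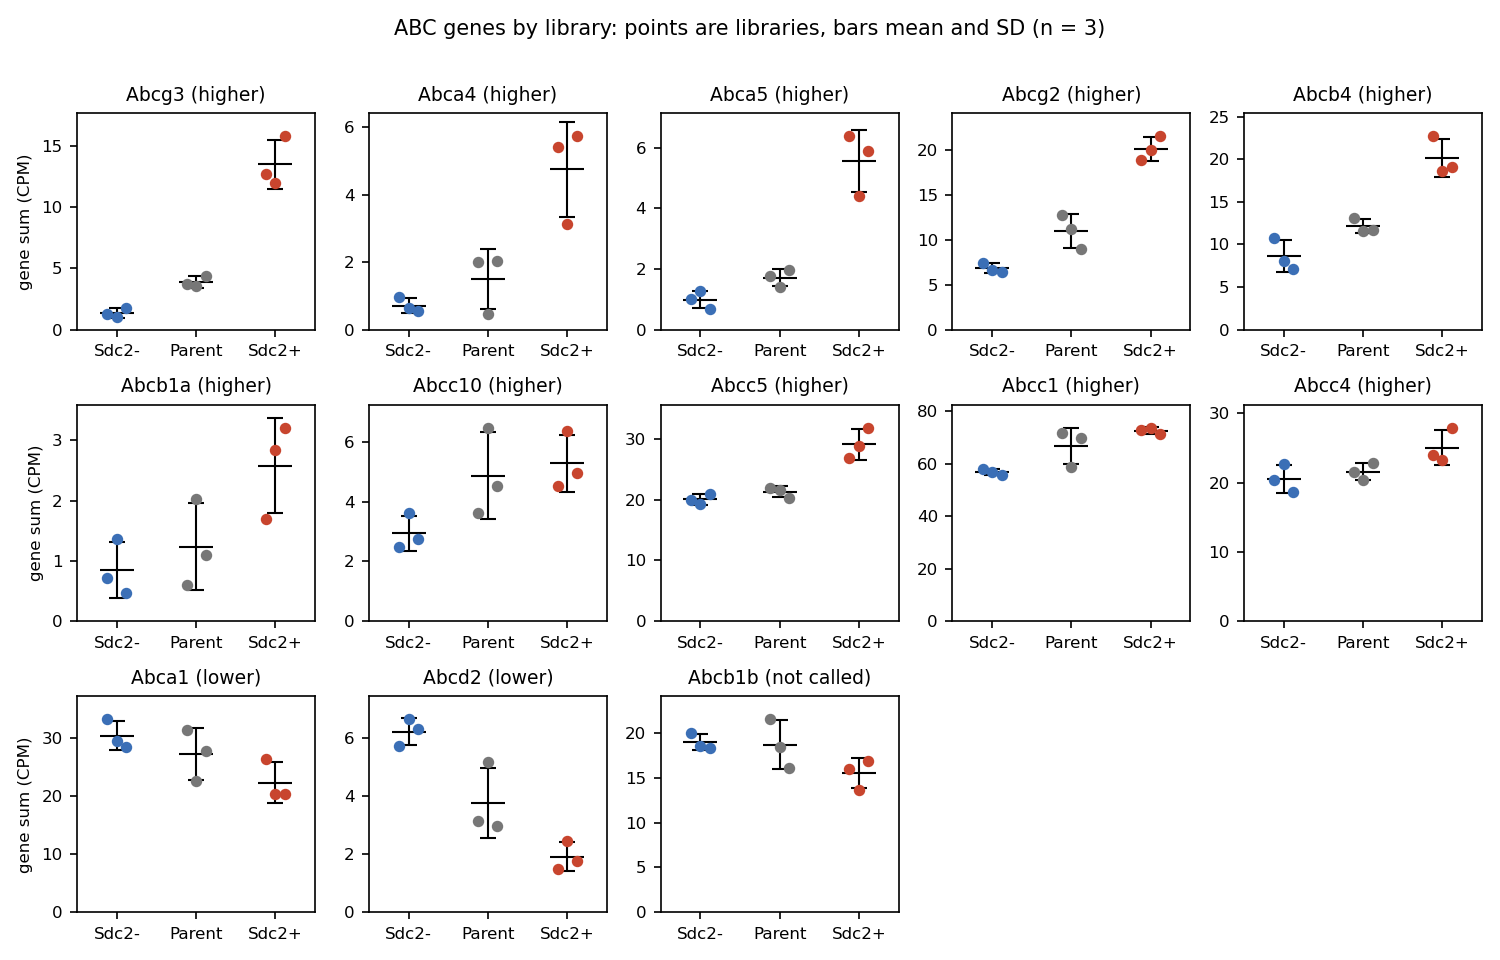
CPM (y axes, linear from 0) of 12 ABC genes called between Syndecan-2+ and Syndecan-2- libraries and of Abcb1b, which was not called; points are single libraries, bars mean and SD of 3. Abcg3, Abcg2, Abcb4, Abca5 and Abcd2 separate all 3 populations, whereas Abcc10 and Abcc1, among others, have Parent libraries that overlap the Syndecan-2+ ones.

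Of 4 other C subfamily exporters tested, 3 were called higher in Syndecan-2+ libraries, where 20.5% of all genes were, and 1 of the 3, Abcc4, lost its call in most alternatives. Their median log2 difference was 0.39, against 0.10 over all genes. Abcc5 (multidrug resistance protein 5), an exporter of cyclic nucleotides and folates (ENSMUSG00000022822, chromosome 16, 20331303 to 20426394), gave 20.1, 19.3 and 20.98 CPM in the negative fraction (libraries 1 to 3), 22.01, 21.6 and 20.3 in Parent and 26.9, 28.8 and 31.9 in the positive fraction. The Syndecan-2+ libraries stood above the other 6, 1.45-fold over Syndecan-2- (log2 0.51, SE 0.09, adjusted p = 0.000274) and 1.37-fold over Parent (adjusted p = 0.00236). Abcc10 (multidrug resistance protein 7), a lipophilic drug exporter (ENSMUSG00000032842, chromosome 17, 46303221 to 46328352), gave 2.49, 3.61 and 2.73 CPM in the negative fraction (libraries 1 to 3), 3.62, 6.47 and 4.53 in Parent and 4.52, 6.36 and 4.97 in the positive fraction. Its Syndecan-2+ values did not overlap the Syndecan-2- values (log2 0.67, SE 0.20, adjusted p = 0.0143) but lay within the range of Parent. The Abcc10 call was lost under quantile normalization (0.48, adjusted p = 0.0988), without negative library 1 (0.59, adjusted p = 0.0583) and without positive library 2 (0.55, adjusted p = 0.0702). Part of its exons (132 bases) overlaps Dlk2 on the opposite strand, and whether counting used strand is not given in the sources used here.

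Abcc4 (multidrug resistance protein 4), which exports cyclic AMP and prostaglandins (ENSMUSG00000032849, chromosome 14, 118482692 to 118706219), gave 20.3, 22.7 and 18.6 CPM in the negative fraction (libraries 1 to 3), 21.5, 20.3 and 22.8 in Parent and 23.96, 23.3 and 27.9 in the positive fraction. The gap between the lowest Syndecan-2+ and the highest negative library was small, and the call was close to the threshold (log2 0.27, SE 0.10, adjusted p = 0.0481). It was lost in 12 of 20 alternative settings, with values from 0.15 to 0.39 and adjusted p from 0.0238 to 0.29 over all of them. These include TMM rescaling (0.15, adjusted p = 0.29) and leaving out any one of Parent libraries 1 and 3 (adjusted p = 0.0579 and 0.0541), negative libraries 1 and 3 (adjusted p = 0.0964 and 0.187) or positive libraries 1 and 3 (adjusted p = 0.0677 and 0.211). Abcc3, a bile salt and glucuronide exporter, was near the minimum at 0.744 ± 0.228 and 0.684 ± 0.475 CPM in the negative and the positive fraction and was not called. Summed over the 5 listed genes of the group, the level was 44.2, 46.3 and 43.1 CPM in the negative fraction, 48.2, 49.9 and 49.5 in Parent and 56.6, 59.03 and 66.2 in the positive fraction. Syndecan-2+ libraries were again the highest without overlap.

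Abcg3, a rodent relative of Abcg2 whose substrate is not established, showed the greatest difference of the 30 genes. Abcg3 (ENSMUSG00000029299, chromosome 5, 104935057 to 104982718) gave 1.27, 1.02 and 1.79 CPM in the negative fraction (libraries 1 to 3), 3.74, 3.53 and 4.41 in Parent and 12.7, 11.9 and 15.8 in the positive fraction. Each population stood apart from the other 2. The Syndecan-2+ mean was 9.92 times the Syndecan-2- mean (log2 2.62, SE 0.17, adjusted p = 3.28e-09) and 3.46 times the Parent mean (log2 1.56, SE 0.17, adjusted p = 4.49e-06), and the Syndecan-2- level was lower than Parent (log2 -1.06, SE 0.17, adjusted p = 0.00171). Both listed transcripts, ENSMUST00000031239 and ENSMUST00000130644, were higher on their own (log2 2.27 and 2.00, adjusted p = 0.000309 and 0.0168 over 31579 transcripts). Abcg3 and Abcg2 transcripts have no 50-base word in common. Abca5, a lysosomal and endosomal transporter of subfamily A (ENSMUSG00000018800, chromosome 11, 110269369 to 110337716), gave 1.01, 1.27 and 0.691 CPM in the negative fraction (libraries 1 to 3), 1.76, 1.41 and 1.97 in Parent and 6.37, 4.42 and 5.87 in the positive fraction. Syndecan-2+ libraries were 5.61-fold above Syndecan-2- libraries (log2 1.72, SE 0.19, adjusted p = 2.29e-06) and 3.25-fold above Parent (log2 1.27, SE 0.19, adjusted p = 0.00014), again without overlap.

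The promoter windows of Abcg3 (minus strand) and of Abcb4 (plus strand), which follows among the lipid transporters, are shown as those of strongly higher genes that hold both letter patterns, with capitals marking the same motifs.
Abcg3, chr5:104982668-104982967: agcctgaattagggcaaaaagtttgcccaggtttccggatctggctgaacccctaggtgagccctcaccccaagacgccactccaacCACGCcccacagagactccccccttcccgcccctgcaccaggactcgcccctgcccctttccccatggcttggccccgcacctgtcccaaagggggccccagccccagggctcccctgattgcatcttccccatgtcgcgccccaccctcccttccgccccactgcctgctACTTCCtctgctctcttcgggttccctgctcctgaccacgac
Abcb4, chr5:8893471-8893770: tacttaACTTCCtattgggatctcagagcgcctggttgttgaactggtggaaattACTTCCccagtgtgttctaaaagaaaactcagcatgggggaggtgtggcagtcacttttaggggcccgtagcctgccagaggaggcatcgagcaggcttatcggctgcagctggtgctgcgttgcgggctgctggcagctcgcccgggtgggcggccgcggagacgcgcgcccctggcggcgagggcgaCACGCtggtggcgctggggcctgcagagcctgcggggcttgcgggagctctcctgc
RefSeq windows of 300 bases were matched for 26 of the 36 genes (32 windows). GCGTG was in 12 of the 32 (37.5%) against 32.4% of all 32851 windows, and GGAAGT in 9 (28.1%) against 23.8%. The windows of Abca4 and Abcc5, which were also higher, held neither pattern. That of Abca13, too low to be tested, held both. AGATAA, the letters bound by GATA factors, was in 1 of 32 (3.12%), a window of Abcf2, against 11.2% of all. For the nuclear receptor repeat known as DR4, only exact copies of the letters AGGTCA were searched. That exact form was in 0 of 32 and in 5 of all windows. Looser forms of the repeat were not searched, so a window without a match may still hold one. Overlaps between these motifs were not removed, and windows of a gene with several starts can share bases. A match is a description of the letters, not a binding site.

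Of 7 lipid transporters tested, 2 were higher, 1 was lower and 4 were not called, with shares near those of all genes (20.5% higher and 9.51% lower) and a median log2 difference of 0.17 against 0.10. Abcb4 (multidrug resistance protein 3 in human), a phosphatidylcholine flippase of bile formation (ENSMUSG00000042476, chromosome 5, 8893717 to 8959231), gave 10.7, 8.03 and 7.15 CPM in the negative fraction (libraries 1 to 3), 13.2, 11.6 and 11.7 in Parent and 22.7, 18.6 and 19.1 in the positive fraction. Syndecan-2+ libraries stood well above the other 6, 2.33-fold over Syndecan-2- (log2 1.15, SE 0.13, adjusted p = 3.72e-06) and 1.65-fold over Parent (log2 0.68, SE 0.13, adjusted p = 0.00157). The difference of Syndecan-2- from Parent libraries was not called (log2 -0.47, SE 0.13, adjusted p = 0.0881), but was lower with the replicate block (adjusted p = 0.0115). Abca4, a retinoid and phospholipid flippase known from photoreceptors (ENSMUSG00000028125, chromosome 3, 122044443 to 122180061), gave 0.953, 0.631 and 0.543 CPM in the negative fraction (libraries 1 to 3), 2.001, 0.458 and 2.02 in Parent and 5.396, 3.13 and 5.72 in the positive fraction. It was 6.698-fold higher in the positive than in the negative fraction (log2 1.73, SE 0.27, adjusted p = 9.12e-05) and 3.18-fold higher than in Parent (log2 1.25, SE 0.27, adjusted p = 0.00319). Parent library 2 was below the other 2 Parent libraries and below the 3 negative libraries. The longest listed Abca4 transcript, ENSMUST00000013995, held 30.4% of the positive mean and was not tested. A shorter coding transcript that starts inside the gene, ENSMUST00000141135, held 46.5%, and retained-intron transcripts held the rest.

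Abca1, the exporter of cholesterol to apolipoprotein A1 (ENSMUSG00000015243, chromosome 4, 53030787 to 53159895), went the other way and gave 33.1, 29.4 and 28.4 CPM in the negative fraction (libraries 1 to 3), 31.4, 22.5 and 27.7 in Parent and 26.3, 20.3 and 20.3 in the positive fraction. Syndecan-2+ values lay below the Syndecan-2- values and overlapped Parent, with a Syndecan-2- mean 1.36 times the Syndecan-2+ mean (log2 -0.43, SE 0.12, adjusted p = 0.0112). The call was lost without negative library 1 (-0.37, adjusted p = 0.0555) or positive library 3 (-0.37, adjusted p = 0.0526). Against Parent Abca1 was not called in Syndecan-2+ libraries (log2 -0.27, SE 0.12, adjusted p = 0.147), but was lower with the replicate block (adjusted p = 0.0233). Abcg1, which passes cholesterol to lipoproteins and is often studied beside Abca1, stood at 32.03 ± 4.33, 32.5 ± 4.44 and 33.5 ± 1.14 CPM in the negative fraction, Parent and the positive fraction (log2 0.07, SE 0.11, adjusted p = 0.684).

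The other lipid transporters tested were not called. Abca2, a lysosomal sterol and sphingolipid transporter, gave 110.3, 106 and 103 CPM in the negative fraction (libraries 1 to 3), 110.1, 104 and 104 in Parent and 103, 101 and 107 in the positive fraction. All populations overlapped (log2 -0.04, SE 0.06, adjusted p = 0.706), although TMM rescaling gave a lower value in Syndecan-2+ libraries (-0.17, adjusted p = 0.0315). Abca7, a phospholipid transporter, gave 43.2, 44.00 and 40.5 CPM in the negative fraction (libraries 1 to 3), 46.4, 44.6 and 41.7 in Parent and 53.2, 49.8 and 44.1 in the positive fraction. Syndecan-2+ values lay above the Syndecan-2- values by a small margin (log2 0.20, SE 0.08, adjusted p = 0.0819), and Abca7 was called higher with the replicate block (adjusted p = 0.0232) and without positive library 3 (0.27, adjusted p = 0.028). Abca3, of surfactant lipid, stood at 23.4 ± 2.83 and 26.3 ± 1.45 CPM in the negative and the positive fraction and was not called.

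In the D subfamily, Abcd2 was lower in Syndecan-2+ libraries. Abcd2, which imports very long chain fatty acids into peroxisomes (ENSMUSG00000055782, chromosome 15, 91145884 to 91191807), gave 5.72, 6.66 and 6.31 CPM in the negative fraction (libraries 1 to 3), 3.16, 5.18 and 2.98 in Parent and 1.51, 2.48 and 1.76 in the positive fraction. None of the populations overlapped, and the Syndecan-2- mean was 3.25 times the Syndecan-2+ mean (log2 -1.32, SE 0.19, adjusted p = 4.82e-05).

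Against Parent, Abcd2 was lower in Syndecan-2+ libraries (log2 -0.70, SE 0.19, adjusted p = 0.019), a call lost without Parent library 2 (-0.49, adjusted p = 0.116), positive library 1 (-0.59, adjusted p = 0.0836) or positive library 3 (-0.66, adjusted p = 0.0601). The log2 difference of Syndecan-2- from Parent libraries was 0.63 (adjusted p = 0.125, not called, and adjusted p = 0.0368 with the replicate block). Abcd3, a peroxisomal transporter, was not called, at 13.8 ± 2.62, 14.2 ± 0.303 and 14.3 ± 0.262 CPM in the negative fraction, Parent and the positive fraction. Abcd4, of lysosomal cobalamin export, was not called either, at 3.49 ± 0.288 and 3.65 ± 1.26 CPM in the negative and the positive fraction.

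The mitochondrial transporters Abcb6, Abcb8 and Abcb10 were not called by limma between Syndecan-2+ and Syndecan-2- libraries, and 1 of them, Abcb6, had an unadjusted p under 0.05. Abcb6, a porphyrin transporter, stood at 2.22, 3.05 and 3.099 CPM in the negative fraction and 4.46, 4.18 and 4.24 CPM in the positive fraction, without overlap (log2 0.49, SE 0.19, adjusted p = 0.057). It was higher with the replicate block (adjusted p = 0.0473), and its exons overlap those of Gm29253 on the same strand, so that reads of both may mix. Abcb8 stood at 11.4 ± 0.931 and 10.1 ± 0.154 CPM in the negative and the positive fraction, and Abcb10, a partner of heme synthesis, at 10.2 ± 1.38 and 12.2 ± 1.69 CPM, in the same order. Abcb9, a lysosomal peptide transporter, was low at 0.618 ± 0.333 and 1.22 ± 0.196 CPM in the negative and the positive fraction and not called (log2 0.47, SE 0.22, adjusted p = 0.128).

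None of the 4 translation factors of the family was called by limma, where 20.5% of all genes were higher and 9.51% lower. Most genes were thus not called either. Abce1, which splits ribosomes after termination, gave 69.2, 65.4 and 69.9 CPM in the negative fraction (libraries 1 to 3), 75.1, 67.9 and 63.6 in Parent and 80.5, 73.5 and 73.1 in the positive fraction. Syndecan-2+ values were just above the Syndecan-2- values (log2 0.15, SE 0.07, adjusted p = 0.152). Abcf1, a factor of translation initiation, gave 96.1, 99.4 and 95.3 CPM in the negative fraction (libraries 1 to 3), 105, 98.2 and 106 in Parent and 103, 97.7 and 94.9 in the positive fraction, with full overlap (log2 0.02, SE 0.06, adjusted p = 0.826). Abcf2 gave 50.99, 45.1 and 47.6 CPM in the negative fraction (libraries 1 to 3), 45.8, 42.8 and 49.02 in Parent and 43.7, 43.8 and 46.3 in the positive fraction, and it was not called (log2 -0.10, SE 0.08, adjusted p = 0.373) except under TMM rescaling, where it was lower (-0.23, adjusted p = 0.018). Abcf3 stood at 12.9 ± 1.59 and 15.3 ± 1.38 CPM in the negative and the positive fraction. At an unadjusted limma p under 0.05 the count in this group was also 0 of 4, and the share of all genes at that limit was not counted.

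To compare levels between genes, CPM was divided by the length of the longest listed protein-coding transcript. On this scale, Abcf1 was highest in Parent libraries at 32.7 ± 1.37 CPM per kilobase, followed by Abce1 at 18.2 ± 1.53, Abcf2 at 17.8 ± 1.22, Abca2 at 13.2 ± 0.437 and Abcc1 at 9.85 ± 1.03 CPM per kilobase. Abce1 and Abcf2 lay within the SD of each other, while the steps on either side of that pair were larger than the SDs. The median of the 30 tested genes was 3.72 CPM per kilobase in Parent libraries. Abcg3 was at rank 22 of 30 in Parent libraries. Abcg2 also has listed transcripts much shorter than its longest, so that its level on this scale depends on the length chosen.

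**Figure D4:**
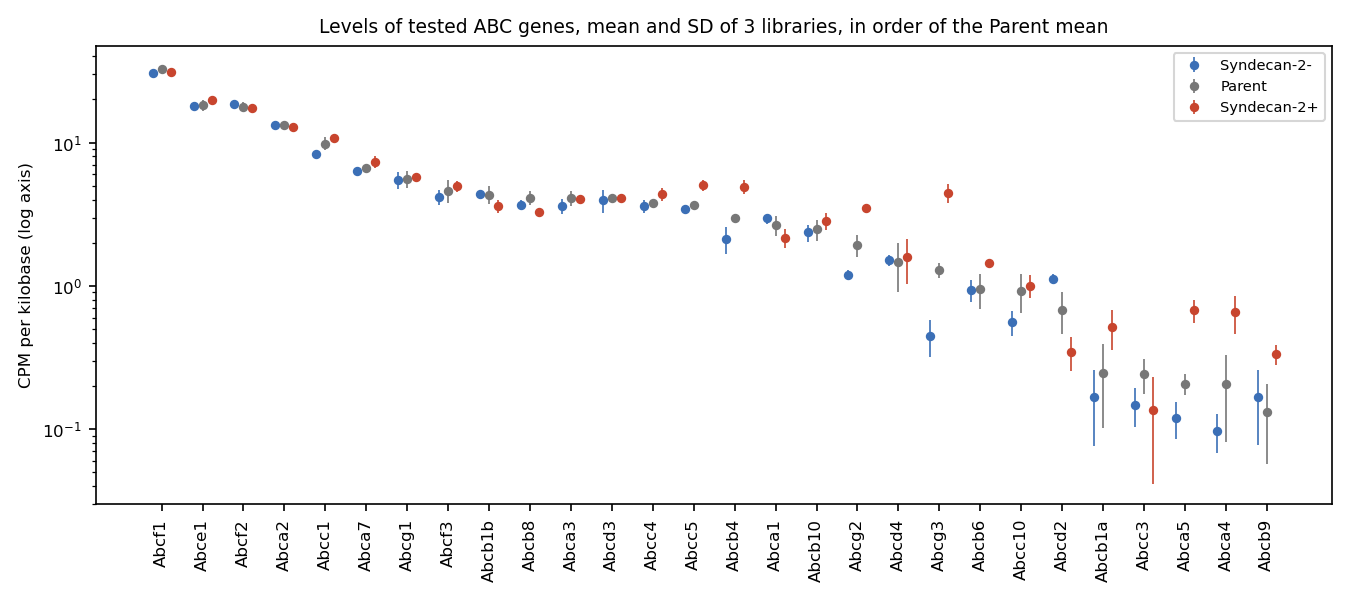
Level per length of 28 of the 30 tested ABC genes (CPM per kilobase of the longest protein-coding transcript, log axis), mean and SD of 3 libraries per population, in order of the Parent mean. The highest genes, led by Abcf1 at 32.7 in Parent libraries, have 3 populations close together, and the populations spread apart for Abcg2, Abcg3, Abca5 and Abca4.

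Members that lie side by side on a chromosome did not all move together. Abcb1a, Abcb1b and Abcb4 follow one another on the plus strand of chromosome 5, with gaps of 49.6 and 27.4 kb. Abcb1a and Abcb4 were higher, while Abcb1b between them had a negative difference that was not called. These genes share some 50-base words, as given above, so that their levels may not be fully separate. Abca9, Abca6 and Abca5 follow one another on the minus strand of chromosome 11, with gaps of 68.3 and 17.6 kb between their listed transcripts. The only listed Abca6 transcript covers 110236453 to 110251776. In GENCODE the Abca6 gene covers 110176820 to 110251776 and so lies nearer to Abca9 than the gap of 68.3 kb. Abca5 was higher. Abca9, at 0.581, 0.647 and 0.536 CPM in Parent, 0.0529, 0.3303 and 0.736 CPM in the negative fraction and 0.05396, 0.0789 and 0 CPM in the positive fraction, was too low to be tested, and its Syndecan-2+ values were under the level of 3 reads. Abca6 gave 0.159, 0.152 and 0.0316 CPM in the negative fraction and at most 0.0954 CPM in Parent, around or under the level of 3 reads, and was listed at 0 in all 3 libraries of the positive fraction.

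The remaining genes below the test's minimum were Abca13, Abcc2, Abcc9 and Abcg4, and no untested member exceeded 1.01 CPM in any library. Abcc2, the canalicular organic anion pump of the liver, stood at 0.194, 0.294 and 0.298 CPM in Parent, 0.371, 0.254 and 0.158 CPM in the negative fraction and 0.348, 0.437 and 0.384 CPM in the positive fraction. Abcc9, the sulfonylurea receptor subunit of potassium channels, was at or under 0.124 CPM in 8 libraries and at 0.328 CPM in positive library 3. The single value of 1.01 CPM belonged to Abcg4 in positive library 2, while the other 2 Syndecan-2+ libraries were near 0.

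Single transcripts were fitted in the same way. Of 133 ABC transcripts 74 could be tested, of which 5 were higher (6.76%) and 2 were lower (2.7%) in the positive than in the negative fraction, against 4.93% and 3.09% of all 31579 transcripts tested. The higher ones were both Abcg3 transcripts and 1 coding transcript each of Abcb4 (ENSMUST00000003717, log2 1.47, adjusted p = 0.000928), Abca5 (ENSMUST00000043961, log2 1.45, adjusted p = 0.0134) and Abca4 (ENSMUST00000141135, log2 1.15, adjusted p = 0.0288). Abcd2 (ENSMUST00000069511, log2 -1.32) gave 1 of the lower ones. The calls of Abcg2, Abcc1, Abcc4, Abcc5, Abcc10, Abcb1a and Abca1 rest on gene sums alone.

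Genes that work beside these transporters were taken from listed pathways, and their counts stand against 20.5% higher, 9.51% lower and a median log2 difference of 0.10 over all genes. Among 10 tested nuclear receptors and sensors that control efflux genes, 2 were higher in the positive than in the negative fraction, 1 was lower and 7 were not called (median 0.18), shares near those of all genes. Ahr, the aryl hydrocarbon receptor, a known activator of Abcg2, rose from 3.92 ± 0.865 (negative) to 7.52 ± 0.836 CPM (positive fraction) (log2 0.80, SE 0.16, adjusted p = 0.00112). Epas1, the hypoxia factor HIF-2 alpha, was low and rose from 0.226 ± 0.0824 (negative) to 1.73 ± 0.536 CPM (positive fraction) (adjusted p = 0.000945). Rxrb, a retinoid X receptor, fell from 44.3 ± 2.65 (negative) to 37.3 ± 1.603 CPM (positive fraction) (adjusted p = 0.0257). Among 10 tested solute carriers and drug-handling genes, 5 were higher, 2 lower and 3 not called (median 0.44, with 20.5% higher and 9.51% lower of all genes). Aldh1a1, an aldehyde dehydrogenase whose activity is used to isolate stem cells, rose from 1.01 ± 0.172 (negative) to 19.4 ± 1.98 CPM (positive fraction) (log2 3.34, SE 0.15, adjusted p = 2.78e-11). Slc22a3, an organic cation transporter, rose from 33.2 ± 3.82 (negative) to 53.3 ± 5.598 CPM (positive fraction). The uptake carriers Slco3a1 and Slc29a1 fell, from 36.7 ± 1.92 (negative) to 16.7 ± 1.02 CPM (positive fraction) and from 23.7 ± 2.09 (negative) to 13.9 ± 1.099 CPM (positive fraction).

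Of 13 tested genes of cholesterol efflux and LXR control, a list that includes Abca1 and Abcg1, 3 were higher, 6 were lower and 4 were not called (median -0.17). Of all genes 20.5% were higher, near the share in this list, and 9.51% lower. Apoe, the apolipoprotein that accepts cholesterol, rose from 62.8 ± 5.19 (negative) to 163 ± 10.9 CPM (positive fraction) (log2 1.36, SE 0.07, adjusted p = 2.81e-10). Npc1 and Npc2, which release cholesterol from lysosomes, fell from 27.8 ± 2.89 (negative) to 17.2 ± 0.327 CPM (positive fraction) and from 30.1 ± 0.597 (negative) to 20.2 ± 1.29 CPM (positive fraction). Smpdl3a, a phosphodiesterase, rose from 9.23 ± 0.848 (negative) to 15.5 ± 2.11 CPM (positive fraction). Of 15 tested genes of heme synthesis and mitochondrial iron, 5 were higher and 10 not called, against 20.5% higher of all genes, and the list's median of 0.11 was close to the 0.10 of all genes. Cpox, coproporphyrinogen oxidase, rose from 13.9 ± 0.9103 (negative) to 23.9 ± 3.002 CPM (positive fraction) and Fech, ferrochelatase, from 8.84 ± 0.741 (negative) to 13.97 ± 2.101 CPM (positive fraction). Urod rose from 17.3 ± 2.86 (negative) to 23.5 ± 2.63 CPM (positive fraction) and Alad from 7.27 ± 1.66 (negative) to 10.7 ± 2.13 CPM (positive fraction). Both erythroid markers tested, Klf1 and Epor, were also higher, and the summed erythroid list held 3.97 to 5.44 CPM (negative fraction), 6.43 to 9.89 (Parent) and 13.96 to 15.3 (positive fraction). Its part in the heme enzyme values was not tested.

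Of 15 tested peroxisome genes, beside the D subfamily, 2 were higher, 1 was lower and 12 were not called (median 0.10), shares under the 20.5% higher and 9.51% lower of all genes. Pex11a, of peroxisome division, rose from 2.04 ± 0.792 (negative) to 3.57 ± 0.477 CPM (positive fraction) and Acox3, a branched chain oxidase, fell from 20.9 ± 3.53 (negative) to 13.3 ± 1.57 CPM (positive fraction). Of 9 tested partners of ribosome recycling and stall sensing, limma called 0, with 0 at an unadjusted p under 0.05 as well. For that unadjusted limit the share of all genes was not counted. The antigen peptide transporter genes Tap1 and Tap2 and their partner Tapbp, whose symbols fall outside the naming pattern, gave 1 lower gene of 3, where 9.51% of all genes were lower. That gene, Tap2, fell from 70.3 ± 5.11 (negative) to 57.1 ± 1.95 CPM (positive fraction) (log2 -0.29, SE 0.07, adjusted p = 0.00526). The roles and lists of this kind describe the genes and no test of a list was made.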

How the data were processed

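RNA-seq of 9 libraries was deposited as CPM values per transcript, with an offset of 0.0001 in every value. STAR, Bowtie2 and the build GRCm38 are named in the submitters' processing notes, without versions or roles. Strandedness is not given in the sources used here. Listed transcripts hold 51.5 to 54.5% of each library's scale. Low values were not whole multiples of a single read, since 32.2 to 33.2% came within 0.1 of one, so that no count test was run and limma took its place. The offset was subtracted and CPM was summed per symbol. limma 3.58.1 in R 4.3.3 (eBayes with trend, on log2(CPM + 1)) was fitted to all 9 libraries and its p-values were adjusted by Benjamini-Hochberg over 13997 genes or 31579 transcripts. The fit was also run on simulated data with independent noise in each library. Those data lack the correlation of same-number libraries described below, and the outcome is not reported here. Python 3.11.15, pandas 2.3.3, numpy 2.4.6 and matplotlib 3.10.9 did the rest. Coordinates, and the gaps between neighbours, are those of the deposited table unless GENCODE is named. Lengths and exon overlaps come from GENCODE release M21.

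The members and gene lists were chosen with earlier results of these data known. Values in every library are given for the 4 efflux genes, for reported members called between the Syndecan-2 fractions without overlap, and for the 5 uncalled members with the highest mean CPM. Replicate numbers come from the labels, and they pair the libraries: deviations from the group means correlated at 0.117 to 0.259 over genes in the 9 same-number pairs and at -0.206 to 0.00483 in the 18 other pairs. Blocked values are printed where they change a call. Other scalings, pseudocounts, filters and left-out libraries were tried as alternatives. No protein sequences were used here. Values of some members and of some listed genes are not reported here.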

Additional observations from a re-analysis of the deposited data

How the results depend on the processing

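No member's direction reversed among those called, under the alternatives run. Between the Syndecan-2 fractions, the 10 higher members became 6 with a minimum of 10 CPM, where fewer genes are tested, and 8 to 11 when single libraries were left out. The 3 lower ones became 6 under TMM rescaling, 6 with the replicate block and TMM, and 2 to 3 with a library left out. The replicate block alone gave 12 higher and 4 lower. For the positive fraction against Parent, the 2 lower members became 1 at a minimum of 10 CPM, 5 with the replicate block and TMM, 1 without all libraries of replicate 2 (added after seeing the data), and 1 to 2 with a library left out. For the negative fraction against Parent, the 0 higher members became 1 with the replicate block, with or without TMM, and 0 to 1 with a library left out. There the 2 lower ones became 4 with the replicate block, 1 without replicate 2, and 1 to 3 with a library left out. The 7 transcripts called became 2 at a minimum of 10 CPM, 4 without replicate 2, and 5 to 8 with a library left out. The replicate block changed no other gene call than those given in the text and the lower call of Abcc10 in the negative fraction against Parent (adjusted p = 0.0463). The cause of these shifts was not tested beyond the fewer genes or libraries. Shares of all genes called were not counted under these alternatives. Leaving out a library keeps 2 in its group and 8 in the fit. Levels near 3 reads are limited by depth.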
